A study of Mus musculus with 12 samples.

Results

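Slco2b1, Dysf, Kazald1, Mamdc2 and Rab44 are 5 of the 20551 genes counted in mouse airway macrophages (AMs), the phagocytes that patrol the surface of the airways and alveoli. They were picked by the size of their fall after lipopolysaccharide (LPS), the outer-membrane glycolipid of Gram-negative bacteria: the first 4 in both genotypes and Rab44 through the transgenic AMs alone. The fall itself is therefore given as a description, with no test. All 5 were among the 13729 genes that passed the filter on low counts and were tested.

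RNA was sequenced from AMs of wild-type (WT) and Scnn1b-transgenic (Scnn1b-Tg, here Tg) mice, all on the C57BL/6 strain and 6 weeks old. The transgene overexpresses the beta subunit of the epithelial sodium channel under the club cell promoter, so it is driven in airway epithelium and not in the macrophages, and the lungs of these mice are obstructed by mucus. AMs of both genotypes were kept for 12 h in medium alone or in medium with 100 ng/ml LPS of Pseudomonas aeruginosa, which gave 4 groups of 3 libraries: WT medium, WT LPS, Tg medium and Tg LPS. Each of the 6 pools (WT 16, 17 and 18, Tg 17, 18 and 19) combined 3 to 4 animals and gave 1 medium and 1 LPS library, so a pool of one genotype shares no animals with a pool of the other. Library batch 1, as labelled, held WT 16, WT 17 and Tg 17, and batch 2 held WT 18, Tg 18 and Tg 19. The labels describe lavage cells that adhered to the plate, whereas the methods of the study describe cells sorted from digested lungs, and the purity of these samples was not measured here.

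Library totals were 48.2 to 60.9 M deposited counts. A read was assumed to be worth about 2.5 counts and a read pair 5 counts. Of the values from 1 to 30, 55.3% lay on such steps (0 or 3 modulo 5), and the rest did not. On this assumption 8 counts, the worth of 3 reads, were taken as the floor of detection. In CPM (counts per M counts of the library) the floor is a level of 0.137 to 0.163. All numbers of read pairs given below rest on the same assumption. Alveolar macrophage markers were present throughout, with 16 of 16 listed genes above the floor, and 11 of these were lower with LPS in each genotype while 3 were higher in WT and 2 in Tg. Their summed level was 17400 to 18000 CPM in WT medium libraries, 11700 to 14000 CPM in those with LPS, and 18800 to 22200 and 13000 to 18500 CPM in Tg. All 10 LPS check genes, among them Tnf and Il1b, rose in both genotypes, from a sum of 85.3 to 182 CPM in medium to 7590 to 10200 CPM with LPS. Scnn1b itself lay between 0 and 0.755 CPM in the 12 libraries, which checks no genotype label because the transgene is not driven in AMs.

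The proteins behind the 5 genes belong to unrelated families. Slco2b1 encodes an organic anion transporting polypeptide, a carrier of the plasma membrane that takes up amphipathic organic anions such as steroid sulfates and many drugs. Dysf encodes dysferlin, a calcium-binding ferlin of the plasma membrane best known for patching wounded muscle fibres. Kazald1 encodes a secreted protein with a Kazal-type protease inhibitor domain and a domain related to the insulin-like growth factor (IGF) binding proteins. Mamdc2 encodes a secreted proteoglycan built of MAM domains, and Rab44 encodes a large, atypical Rab GTPase with EF-hands, studied mostly in the granule release of mast cells. Resting alveolar macrophages hold a programme of lipid handling and tissue maintenance, and bacterial products shift them to the production of cytokines and chemokines.

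In GENCODE M21 on the mm10 build, Slco2b1 (ENSMUSG00000030737) occupies positions 99657804 to 99711340 of chromosome 7 on the minus strand, with 14 exons in its longest coding transcript. Dysf (ENSMUSG00000033788) spans 84008590 to 84211060 of chromosome 6 on the plus strand with 55 exons. Kazald1 (ENSMUSG00000025213) spans 45075241 to 45079289 of chromosome 19 on the plus strand with 6 exons. Mamdc2 (ENSMUSG00000033207) lies on the same chromosome at 23302609 to 23448442 on the minus strand with 14 exons, and Rab44 (ENSMUSG00000064147) at 29114145 to 29148980 of chromosome 17 on the plus strand with 8 exons. The genes share no common size: the span ran from 4.0 kb for Kazald1, longer than 16.4% of tested genes, to 202.5 kb for Dysf, longer than 96.9%, and the exons from 1681 bases in Kazald1 to 8328 in Dysf around a median of 3959 over the tested genes with annotation. Reads were counted without regard to strand. Slco2b1 shares 471 of its 5958 exon bases with the antisense gene Gm15635, which never exceeded 6 counts, and 78 with Gm34280, and Dysf shares 352 with Gm15475 and 105 with Gm33024, so a part of their reads cannot be assigned to a strand. Kazald1, Mamdc2 and Rab44 share no exon base with another annotated gene.

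Because the 5 genes fell together, the sequences before their starts are shown. RefSeq promoter windows on GRCm38.p6 were at hand for 3 of the 5 genes (Slco2b1, Dysf and Kazald1). The first window of each is printed 5′ to 3′ on the strand of the gene, as the 250 bases before the start, and capitals mark motif matches. The motifs were chosen after these sequences had been seen and were searched on both strands of 32851 windows of 300 bases.
Slco2b1, chr7:99711341-99711590, minus strand: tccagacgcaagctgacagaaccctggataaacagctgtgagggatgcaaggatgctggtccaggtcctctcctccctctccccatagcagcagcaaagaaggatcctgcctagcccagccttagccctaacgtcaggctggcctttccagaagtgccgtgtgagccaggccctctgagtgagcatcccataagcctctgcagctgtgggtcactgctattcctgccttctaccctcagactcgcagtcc
Slco2b1, first 30 bases from the start, chr7:99711311-99711340, minus strand: atgagggAGGAAGTGACTCAtcttccggat
Dysf, chr6:84008348-84008597, plus strand: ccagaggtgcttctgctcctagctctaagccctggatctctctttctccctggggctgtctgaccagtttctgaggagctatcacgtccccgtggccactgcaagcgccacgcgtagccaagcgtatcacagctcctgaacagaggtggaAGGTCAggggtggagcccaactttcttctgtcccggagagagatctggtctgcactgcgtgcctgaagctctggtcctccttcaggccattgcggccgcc
Kazald1, chr19:45074991-45075240, plus strand: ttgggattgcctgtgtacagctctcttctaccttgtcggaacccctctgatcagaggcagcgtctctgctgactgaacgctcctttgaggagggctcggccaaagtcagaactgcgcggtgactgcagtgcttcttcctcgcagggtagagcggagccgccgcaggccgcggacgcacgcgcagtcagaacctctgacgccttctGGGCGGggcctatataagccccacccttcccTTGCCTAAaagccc

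The capitals of Slco2b1 lie past its start, where a match to the ETS motif AGGAAGT, bound by PU.1 and its relatives, begins at base 8 and shares its last base with a match to the AP-1 motif TGANTCA that begins at base 14. AGGAAGT was held by 9.35% of all windows and TGANTCA by 7.81%. In Dysf, the capitals mark the nuclear receptor half-site AGGTCA (16.3% of windows) at -100, and in Kazald1 the GC box GGGCGG (35.7%) at -45 and a match to the C/EBP motif TTGCNNAA (10.8%) at -14. A match to the GC box on the other strand begins at -2 in Dysf and runs past the printed bases. The 3 first windows held no match to the NF-kB motif GGGNNTTCC (5.82% of all windows), the IRF motif GAAANNGAA (8.56%), the E-box CACGTG (7.15%) or the TATA box string TATAAA (13.6%). The TATA box was searched as this exact string only, which the bases tatataag shortly before the start of Kazald1 do not match. No capitalised motif was common to the 3 genes. The windows of Slco2b1, Dysf and Kazald1 had 57.0%, 60.0% and 60.0% G and C bases and 5, 13 and 19 CpG dinucleotides, against medians of 52.7% and 7 over all windows.

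Slco2b1, the transporter, was close to undetectable in AMs after LPS. In WT medium it held 577, 740 and 652 counts in pools 16, 17 and 18, or 12.8 ± 2.38 CPM (mean ± SD, n = 3), and in WT LPS 4, 5 and 8 counts, or 0.106 ± 0.0393 CPM. In Tg medium it held 938, 971 and 1710 counts in pools 17, 18 and 19 (22.2 ± 8.56 CPM), and in Tg LPS 9, 0 and 4 counts (0.0781 ± 0.0793 CPM). Medium and LPS libraries were far apart in both genotypes, and 5 of the 6 LPS libraries were at or under the floor. Summed over the 3 pools, 394 read pairs in WT medium stood against 3 in WT LPS, a ratio of 136 with an exact 95% counting interval of 46.3 to 664, and 724 against 3 in Tg, a ratio of 238 (81.0 to 1160). These intervals rest on the assumed 5 counts per read pair, treat the pairs as independent and leave out the spread between pools. Amplified reads are not independent molecules, so the intervals may be too narrow even for counting error. In such bulk libraries, fewer cells that express a gene and less RNA per cell cannot be told apart.

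Dysf, the ferlin, also came close to the floor with LPS but differed from Slco2b1 in its spread in medium. WT medium libraries held 321, 621 and 318 counts (8.26 ± 3.81 CPM), so that pool 17 had nearly as much as the other pools together. Tg medium libraries held 1412, 932 and 1047 counts (20.5 ± 3.32 CPM), each above all WT medium libraries. With LPS, 3, 8 and 17 counts were left in WT (0.173 ± 0.134 CPM) and 11, 15 and 9 in Tg (0.217 ± 0.0606 CPM), and the genotypes overlapped. The ratio of summed read pairs was 43.6 (interval 19.8 to 120) in WT, from 252 pairs to 6, and 95.4 (46.1 to 238) in Tg, from 678 pairs to 7.

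Kazald1 and Mamdc2, whose products are secreted, kept a measurable level after LPS. Kazald1 held 1063, 634 and 1240 counts in the medium libraries of WT (19 ± 6.00 CPM) and 56, 31 and 50 in their LPS partners (0.867 ± 0.298 CPM). In Tg it held 1341, 1948 and 1802 counts in medium (31.2 ± 7.36 CPM) and 33, 46 and 35 with LPS (0.707 ± 0.151 CPM). All LPS values lay above the floor and far below all medium values. By pool, medium exceeded LPS 17, 24.0 and 26.4-fold in WT 16, 17 and 18 and 39.5, 42.3 and 50.7-fold in Tg 17, 18 and 19. This ratio is the quantity by which the genes were chosen.

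Mamdc2 was the gene whose LPS change had the smallest error of the 5. WT medium libraries held 3252, 2618 and 2054 counts (50.9 ± 8.73 CPM) and WT LPS libraries 142, 146 and 130 (2.61 ± 0.201 CPM). Tg medium libraries held 4728, 2886 and 3164 counts (65.0 ± 14.0 CPM) and Tg LPS libraries 93, 104 and 96 (1.81 ± 0.170 CPM). The 3 libraries of WT LPS all lay above the 3 of Tg LPS, although the medium groups overlapped. By pool the ratios were 20.5, 21.1 and 16.8 in WT and 49.4, 27.7 and 32.4 in Tg.

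Rab44, the GTPase, had the most even medium level of the 5 genes in WT, and 1 library apart from the others with LPS. WT medium libraries held 585, 491 and 518 counts (10.3 ± 0.255 CPM) and WT LPS libraries 28, 44 and 87 (0.988 ± 0.576 CPM). The library of WT 18 kept 1.64 CPM with LPS, against 0.559 and 0.763 CPM in WT 16 and WT 17. Tg medium libraries held 643, 850 and 1010 counts (15.3 ± 4.00 CPM) and Tg LPS libraries 39, 19 and 37 (0.583 ± 0.192 CPM). By pool the ratios were 18.7, 13.1 and 6.33 in WT and 16.0, 44.7 and 26.9 in Tg, and the pools of the genotypes overlapped.

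**Figure D1:**
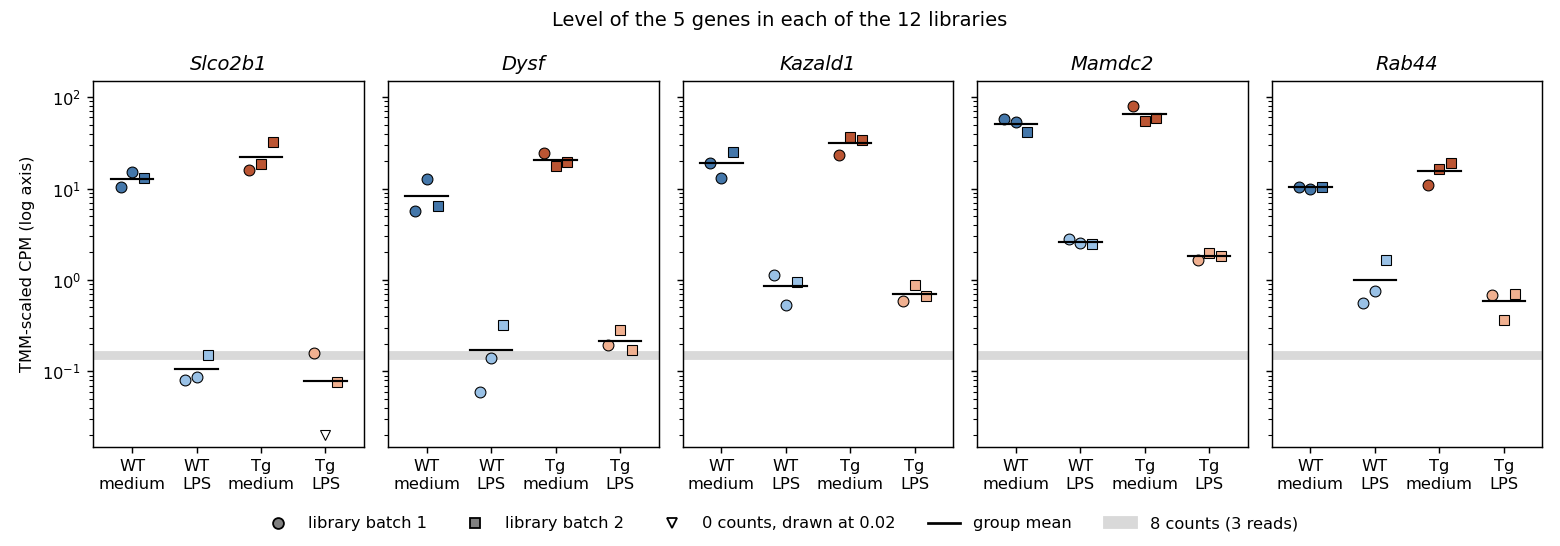
TMM-scaled CPM on a log axis of the 5 genes in the 12 libraries, with circles for batch 1, squares for batch 2, a black line for each group mean and a grey band at 8 counts. Every LPS library lies below every medium library of its genotype, and Slco2b1 and Dysf reach the grey band (0.137 to 0.163 CPM), with 1 Tg LPS library of Slco2b1 at 0 counts.

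Expressed as the share of the medium level that was left, WT AMs kept 0.733% of Slco2b1, 2.29% of Dysf, 4.43% of Kazald1, 5.10% of Mamdc2 and 9.66% of Rab44. Tg AMs kept 0.421%, 1.05%, 2.29%, 2.78% and 3.85% in the same order. The ranking of the genes was thus the same in both genotypes, and the counting intervals of neighbours in it overlapped, except that those of Mamdc2 and Rab44 in WT were apart (15.7 to 24.7 and 7.19 to 15.4). Within a gene, the intervals of WT and Tg overlapped for Slco2b1, Dysf and Kazald1, and did not for Mamdc2 (27.8 to 47.4 in Tg) and Rab44 (16.5 to 43.5 in Tg). They leave out the spread between pools. By pool, the ratios of Rab44 overlapped between the genotypes (6.33 to 18.7 in WT and 16.0 to 44.7 in Tg).

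**Figure D2:**
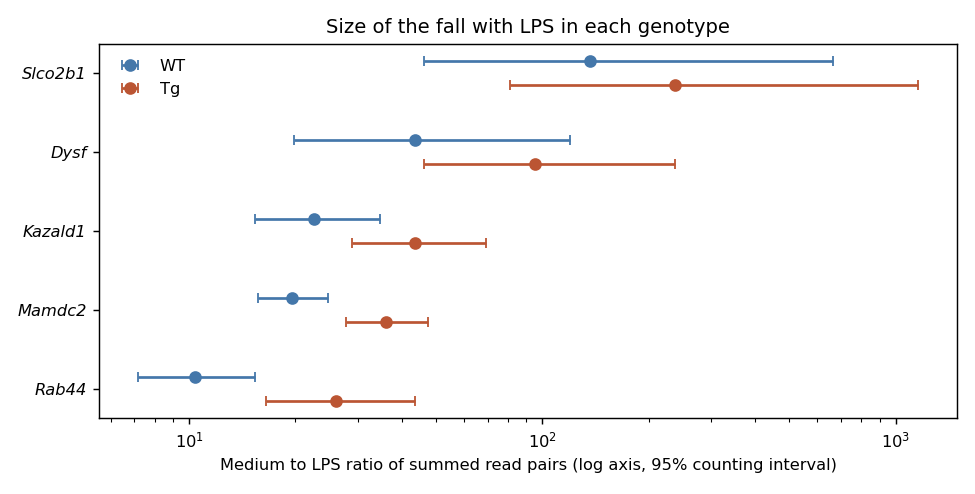
Ratio of summed read pairs, medium to LPS, on a log axis for each gene in WT (blue) and Tg (red), with exact 95% counting intervals that leave out the spread between pools. Ratios run from 10.4 for Rab44 in WT to 238 for Slco2b1 in Tg, with the widest intervals where only 3 read pairs were left.

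In the fit over all 12 libraries, which includes the batch, the log2 changes with LPS in WT were -6.90 (SE 0.50) for Slco2b1, -5.53 (SE 0.47) for Dysf, -4.43 (SE 0.25) for Kazald1, -4.28 (SE 0.15) for Mamdc2 and -3.45 (SE 0.32) for Rab44. In Tg they were -8.04 (SE 0.52), -6.55 (SE 0.47), -5.45 (SE 0.26), -5.14 (SE 0.16) and -4.66 (SE 0.35). For Slco2b1 and Dysf the fitted value depends on how the near-empty LPS libraries are handled. These changes stand in a broad response: 4242 of 13729 genes (30.9%) were called in WT, of which 2158 were lower (15.7% of all tested), and 5032 (36.7%) in Tg, of which 2446 were lower (17.8%), by the edgeR quasi-likelihood test at a Benjamini-Hochberg adjusted p under 0.05. The median log2 change over all tested genes was 0.001 in WT and -0.016 in Tg.

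The genes were the largest falls only among well measured genes. When genes had to be called, reach 5 CPM on average and have all LPS libraries under all medium libraries, 1527 genes qualified in WT and 1629 in Tg, and the 5 genes held places 1 to 5 in Tg and places 1, 3, 4, 5 and 12 in WT. Just outside the choice in Tg lay Cnr2, a cannabinoid receptor of immune cells, at -4.61 (SE 0.30), close to Rab44 at -4.66, then Frmd4b at -4.29 and Rgs2, a brake on G protein signalling, at -4.28. In WT the identifier ENSMUSG00000037015, for which no symbol was at hand, came second at -6.42 with a large error (SE 1.32), and Cnr2 followed Mamdc2 at -4.07, ahead of Ace, the angiotensin-converting enzyme, at -3.66. Over all tested genes with no minimum level, 51 in WT and 48 in Tg had fitted changes of -5 or below.

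**Figure D3:**
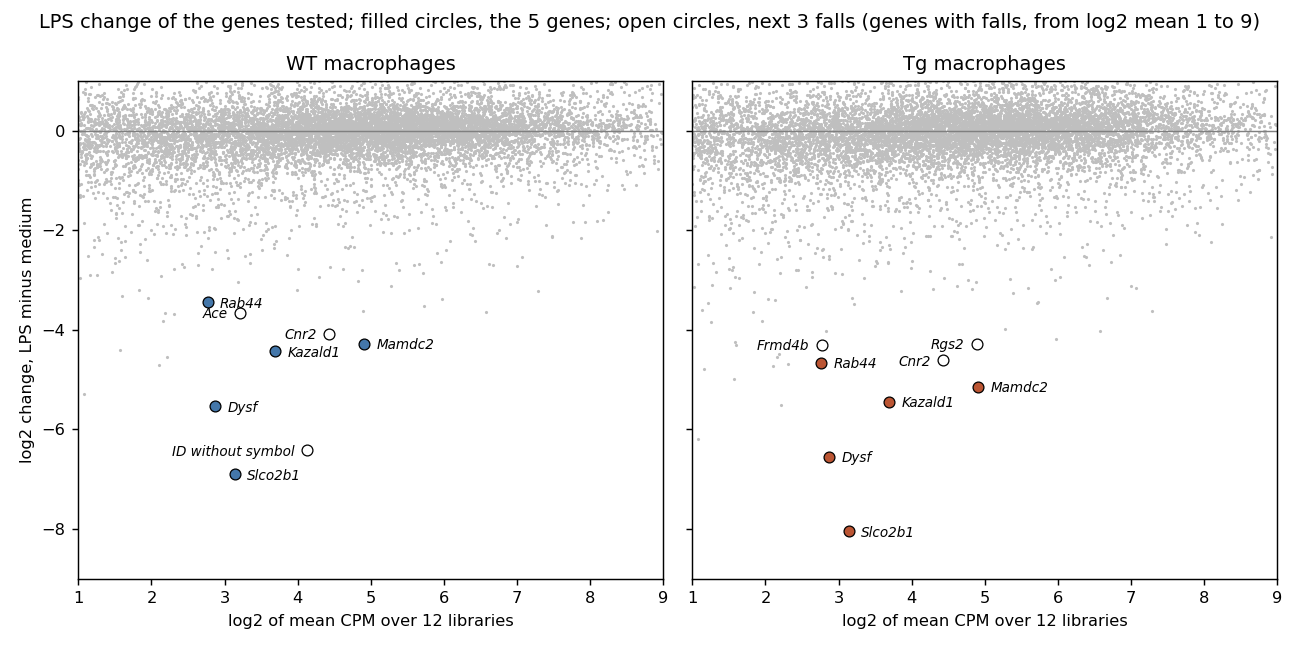
Fitted log2 change with LPS (y axis) against log2 mean CPM (x axis) for WT and Tg AMs, cut to the region of the falls, with the tested genes in grey, the 5 genes filled and the next 3 falls open. Slco2b1 is the lowest named gene in both panels (-6.90 and -8.04), while Rab44 lies among its neighbours in WT (-3.45).

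Whether AMs of the genotypes differ at rest is another comparison than the one that chose the genes, but the same medium libraries entered the choice. A high level in Tg medium favours a large fall in Tg, through which Rab44 alone was picked. These differences, their direction and their p-values are therefore a description and no independent test. Every gene had a higher mean in Tg medium than in WT medium, with log2 differences of 0.69 (SE 0.35) for Slco2b1, 1.35 (SE 0.35) for Dysf, 0.55 (SE 0.21) for Kazald1, 0.43 (SE 0.13) for Mamdc2 and 0.39 (SE 0.30) for Rab44. The libraries did not overlap for Slco2b1, Dysf and Rab44, a state with Tg higher that 9.02% of tested genes had. None of the 5 passed the edgeR quasi-likelihood test, with adjusted p of 0.452, 0.151, 0.314, 0.213 and 0.637 in the same order, where 36 genes (0.262%) did and 1784 had an unadjusted p under 0.05. Dysf was nearest, with an unadjusted p of 0.00306 in that model. With the pool as a random effect (limma voom, replicate block), the Dysf difference was 1.54 (SE 0.24) with an adjusted p of 0.0320, past the threshold, and over all alternatives the adjusted p of Dysf ran from 0.0320 to 0.613.

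The batches gave like values for some of the genes. Within batch 1 (Tg 17 against WT 16 and 17) and batch 2 (Tg 18 and 19 against WT 18), the log2 differences in medium were 1.44 and 1.47 for Dysf, 0.53 and 0.50 for Kazald1 and 0.53 and 0.46 for Mamdc2. For Slco2b1 they were 0.35 and 0.87, and for Rab44 0.10 and 0.72, so the Rab44 difference lay almost wholly in batch 2. A single library also moved fitted values in medium: Rab44 was at 0.13 without WT medium 18, Slco2b1 at 0.42 without Tg medium 19 and Mamdc2 at 0.27 without Tg medium 17. Marker lists also moved with genotype in medium: the summed neutrophil markers, for which Retnlg, Ly6g and Elane were not analysed here, were at 20.7 to 24.2 CPM in WT and 27.3 to 37.8 CPM in Tg, monocyte markers at 72.2 to 88.5 and 48.7 to 66.0 CPM, dendritic cell markers at 2.79 to 3.94 and 5.29 to 7.23 CPM, and epithelial markers at 88.8 to 110 and 43.2 to 76.6 CPM. Endothelial markers (67.4 to 80.6 and 81.6 to 96.5 CPM), fibroblast markers (2.81 to 3.26 and 3.89 to 5.37 CPM) and alveolar macrophage markers (17400 to 18000 and 18800 to 22200 CPM) were also apart, while those of mast cells or basophils, T or NK cells, B cells and eosinophils overlapped. Most of the alveolar macrophage sum was Chil3, at 9550 to 10300 CPM in WT medium and 11500 to 14400 CPM in Tg medium. Car4, Fabp4, Pparg and Plet1 of that list were also higher in all Tg medium libraries. The others in it, Siglecf, Marco and Cd9 among them, overlapped between the genotypes in medium. Most of the monocyte sum came from Treml4 and Ace, whereas Ly6c2, Ccr2 and Cx3cr1 stayed between 0 and 0.635 CPM in medium, and S100a9 of the neutrophil list between 0 and 0.0951 CPM. Treml4 was lower in Tg medium (25.3 to 38.4 CPM, against 48.4 to 69.9 CPM in WT), whereas Ace was not. The largest part of the dendritic cell sum was Ccr7, at 1.85 to 2.33 CPM in WT medium and 4.17 to 5.8 CPM in Tg medium. The part of these lists in the values of the 5 genes was not tested.

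With LPS most genotype differences were of the other sign. The same LPS libraries entered the choice of the genes, and a low level in Tg LPS favours a large fall in Tg. These differences and their p-values are therefore a description and no independent test. The log2 differences, Tg minus WT, were -0.46 (SE 0.28) for Kazald1, -0.43 (SE 0.16) for Mamdc2 and -0.82 (SE 0.35) for Rab44, with adjusted p of 0.892, 0.607 and 0.699 by the edgeR quasi-likelihood test. Slco2b1 and Dysf, at or near the floor in both groups, were fitted at -0.45 (SE 0.82) and 0.34 (SE 0.61), both with an adjusted p of 1.0, values that depend on how near-empty libraries are handled. Only Mamdc2 had LPS libraries that did not overlap between the genotypes, with Tg lower, as 3.39% of tested genes had. In this comparison 7 genes (0.051%) were called in all and 931 had an unadjusted p under 0.05. When the batch term was exchanged for the replicate number (replicate block) 12 genes were called, and when the pool was a random effect 11, in both cases without any of the 5. The Rab44 difference was 0.04 within batch 1 and -1.07 within batch 2, and the fitted difference was -0.29 without WT LPS 18 and -0.52 without Tg LPS 18. For Mamdc2 the batches gave -0.57 and -0.30 and the fit -0.20 without Tg LPS 17, and for Kazald1 the batches gave -0.26 and -0.19 and the fit -0.14 without WT LPS 16.

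**Figure D4:**
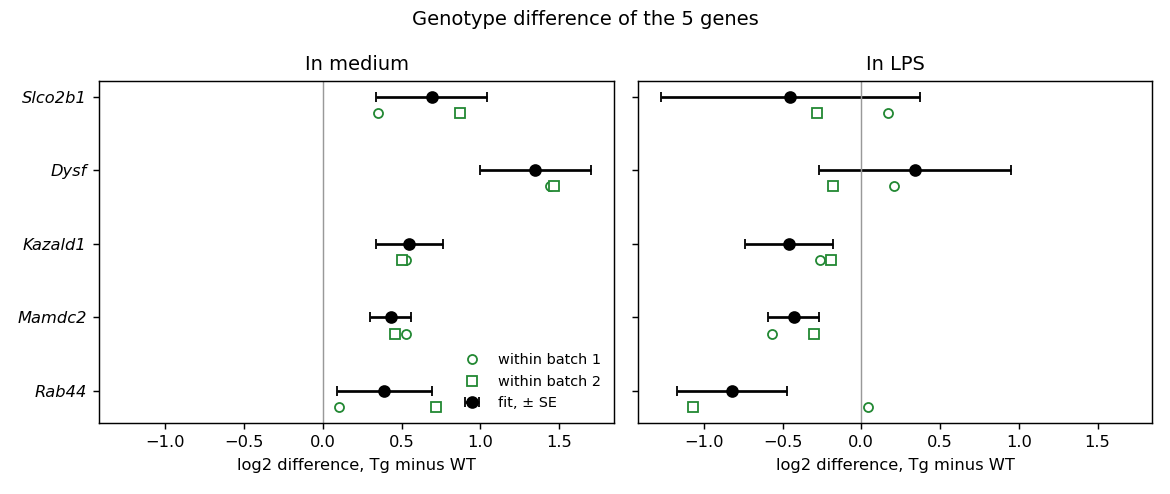
Log2 difference, Tg minus WT (x axis), of the 5 genes in medium and in LPS, with black points for the fit and bars for its SE, and open green circles and squares for the differences within batch 1 and batch 2. All points in medium lie at or above 0.10, Dysf highest at 1.35, while in LPS the fits of 4 genes lie below 0 and those of Slco2b1 and Dysf have the widest bars.

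Set side by side, the fitted changes with LPS were larger in Tg than in WT for each gene. The mean medium level was higher in Tg for all 5. The mean LPS level was lower in Tg for Kazald1, Mamdc2 and Rab44, and at or near the floor in both genotypes for Slco2b1 and Dysf. The difference of the log2 changes, Tg minus WT, was -1.14 (SE 0.88) for Slco2b1, -1.01 (SE 0.71) for Dysf, -1.02 (SE 0.34) for Kazald1, -0.86 (SE 0.20) for Mamdc2 and -1.21 (SE 0.45) for Rab44. Those of Slco2b1 and Dysf had the largest errors of the 5. All 5 differences are made of the same falls by which the genes were chosen, so they are a description and no test. Rab44 was chosen for its value in Tg alone, which by itself favours such a difference.

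Per length, the levels of the genes fell into an upper and a lower tier. In WT medium, Mamdc2 had 14.7 ± 2.52 CPM per kb of exon and Kazald1 11.3 ± 3.57, above 78.3% and 73.5% of the tested genes. Slco2b1 (2.15 ± 0.400), Rab44 (2.03 ± 0.0504) and Dysf (0.992 ± 0.458 CPM per kb) lay above 41.0%, 40.1% and 29.3%. In Tg medium the order was Mamdc2 (18.8 ± 4.04), Kazald1 (18.6 ± 4.38), Slco2b1 (3.72 ± 1.44), Rab44 (3.03 ± 0.789) and Dysf (2.46 ± 0.398 CPM per kb). Mamdc2 and Kazald1 differed by less than the SD of Kazald1 in both medium groups, though by more than that of Mamdc2 in WT. They changed places between libraries, as did Slco2b1 and Rab44. Dysf was apart from Rab44 in WT medium and within its spread in Tg medium. With LPS, Mamdc2 led in all 6 libraries, at 0.754 ± 0.0581 CPM per kb in WT and 0.524 ± 0.0493 in Tg, followed by Kazald1 (0.516 ± 0.177 and 0.420 ± 0.0901) and Rab44 (0.195 ± 0.114 and 0.115 ± 0.0380), while Dysf (9 to 15 counts a library in Tg, 3 to 17 in WT) and Slco2b1 (0 to 9) lay near the floor and changed places between libraries. Mamdc2 was still above 26.5% of tested genes in WT LPS and 22.0% in Tg LPS, whereas Slco2b1 was above 1.51% and 1.09%.

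Other cell types were sought as carriers of these transcripts. Mast cell or basophil markers, the setting in which Rab44 is best known, summed to at most 0.482 CPM in any medium library and 0.625 CPM in any LPS library over the 5 of 10 listed genes that were counted, with Cpa3 between 0 and 0.0342 CPM. Neutrophil markers summed to 15.2 to 17.5 CPM in WT LPS and 16.9 to 22.5 CPM in Tg LPS, below their medium range in each genotype. Within that list Cxcr2, the chemokine receptor of neutrophils, fell like the 5 genes: its mean was 4.01 CPM in WT medium, 0.186 in WT LPS, 7.5 in Tg medium and 0.232 in Tg LPS, whereas S100a8 was at 2.00 to 5.78 CPM in medium and 6.00 to 14.2 CPM with LPS. Eosinophil markers summed to 14.8 to 20.5 CPM in WT medium and 2.34 to 3.85 CPM in WT LPS, and to 8.93 to 20.4 and 1.48 to 8.54 CPM in Tg. Nearly all of that sum was Ear6, since Prg2 and Ccr3 were at 0 in all medium libraries and Epx, Prg3 and Il5ra were not analysed here. Monocyte markers, 10 of 10 counted, summed to 180 to 220 CPM in WT LPS and 142 to 198 CPM in Tg LPS. These sums lay above their medium ranges and were again mostly Treml4. In the monocyte list 2 genes were called higher and 2 lower in WT, and 2 and 1 in Tg. Ace fell like the 5 genes, from a mean of 14.1 to 1.1 CPM in WT. In Tg, Ace fell from at least 17.7 CPM in medium to at most 2.26 CPM with LPS. Dendritic cell markers, 7 of 10 counted, summed to 9.47 to 10.3 CPM in WT LPS and 13.4 to 20.4 CPM in Tg LPS. The sums of the T or NK cell markers (1.71 to 2.78 CPM over all 12 libraries), B cell markers and epithelial markers overlapped between medium and LPS in each genotype. Endothelial markers, in which Vwf made up nearly all of the sum and Tek was at 0 in all libraries, were at 67.4 to 80.6 CPM without and 53.7 to 72.8 CPM with LPS in WT, and at 81.6 to 96.5 and 41.1 to 66.9 CPM in Tg, and fibroblast markers at 2.81 to 3.26 CPM without and 6.11 to 8.57 CPM with LPS in WT, and at 3.89 to 5.37 and 6.21 to 10.4 CPM in Tg. The fibroblast rise was mostly Dcn, from at most 0.171 CPM in medium to 4.05 to 8.83 CPM with LPS. Pdgfra of that list went from 2.57 to 3.21 CPM down to 1.67 to 2.06 CPM in WT. In Tg it went from 3.74 to 5.2 CPM down to 1.56 to 3.03 CPM. The part of the lists that moved in the falls of the 5 genes was not tested.

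Relatives of the 5 genes moved in either direction with LPS, and their counts are to be read against the 30.9% (WT) and 36.7% (Tg) of tested genes called in either direction. Of the SLCO transporters, 2 others were tested and both rose in both genotypes: Slco4a1, with 4.24 CPM in medium and 105 with LPS in WT, against 1.51 and 69.2 in Tg (log2 changes of 4.64 and 5.54, adjusted p 1.55e-06 and 4.84e-07, edgeR), and Slco3a1, with 0.236 and 3.04 CPM in WT against 0.109 and 5.52 in Tg (3.68 and 5.64), the medium level in Tg resting on 0 to 13 counts a library. The 3 tested ferlins besides Dysf were Myof, Otof and Fer1l5. None was called in WT (adjusted p of 0.22, 0.159 and 0.0751, edgeR). All were called lower in Tg, where 17.8% of tested genes were. Their median log2 changes were -0.90 in WT and -1.27 in Tg, against 0.001 and -0.016 over all tested genes. These medians are the values of Otof in WT and of Fer1l5 in Tg, genes with few counts. With LPS, Otof held 10 to 22 counts a library in WT and 5 to 10 in Tg, near the floor. Fer1l5 held 12 to 14 and 10 to 20, so the calls of both in Tg rest on few counts. Myof, the abundant ferlin of these cells, was at 634 and 519 CPM in WT medium and LPS and 720 and 483 CPM in Tg, a log2 change of -0.30 (SE 0.17) and -0.60 (SE 0.17). With the pool as a fixed term (replicate block), Myof was called in WT as well, at -0.31 with an adjusted p of 0.0335, and Fer1l5 was not called in Tg, with an adjusted p of 0.0697.

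Of 19 tested genes of membrane repair other than the ferlins, 5 rose and 3 fell in WT and likewise in Tg, around medians of 0.12 and 0.14. Thus 8 of 19 were called in each genotype, where 30.9% (WT) and 36.7% (Tg) of all tested genes were. With the pool as a fixed term (replicate block), 11 were called in WT and 10 in Tg. The largest rises in both were those of Cav1, the coat protein of caveolae, by 2.87 and 3.70 on the log2 scale, and of Syt7, a calcium sensor of lysosome exocytosis, by 2.58 and 4.59, the latter from 0 to 10 counts a library in Tg medium. The largest falls were those of Anxa1 (-1.09 and -1.22) and Anxa6 (-0.65 and -0.79), annexins that bind membranes in the presence of calcium.

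Among 9 tested genes of the IGF axis, 1 rose and 2 fell in each genotype, near the share of all tested genes. Igf1, the growth factor, fell in WT from 62.7 to 9.88 CPM and in Tg from 109 to 21.8 CPM (-2.67 and -2.34), Insr, the insulin receptor, fell as well (log2 changes of -0.61 and -0.84), and Htra1, a secreted protease that cleaves IGF binding proteins, rose by 1.99 and 2.95. The other 6 were not called, and the binding proteins Igfbp3, Igfbp5, Igfbp6 and Igfbp7 had at most 0.464 CPM in any group. The median of the list was -0.07 in WT and -0.58 in Tg, or -0.35 in Tg when genes at the floor in 1 group were set to their bound.

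The MAM domain list had 5 tested genes besides Mamdc2, with medians of 0.48 and 0.71. Nrp2, a coreceptor for semaphorins, had 180 CPM in WT medium and 884 in WT LPS, and 172 and 919 in Tg, a rise of 2.29 and 2.41 on the log2 scale, its relative Nrp1 fell (log2 changes of -0.65 and -1.07), and 3 were not called. Of 9 tested large or secretory Rab genes and partners besides Rab44, Rab32, of lysosome-related organelles, rose by 0.94 and 1.31, and Rab27a, which docks secretory granules, fell in WT from 3.98 to 1.25 CPM and in Tg from 4.83 to 1.41 CPM (-1.66 and -1.78). Rab37 was called lower in Tg alone (-1.15 there and -0.31 in WT), a difference between genotypes that was not tested. The medians of the list were 0.08 and -0.10. Cracr2a, the other large Rab tested, had at most 0.565 CPM in any group. Between the genotypes, the lowest adjusted p of a listed relative was 0.0897 for Slco4a1 in medium (edgeR).

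**Figure D5:**
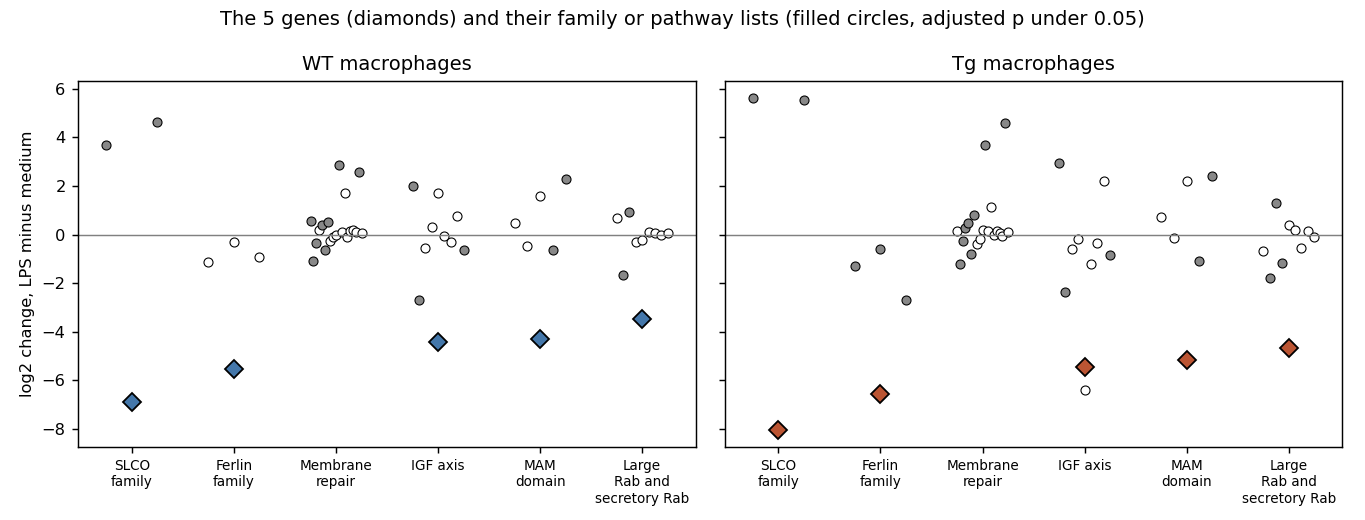
Fitted log2 change with LPS (y axis) in WT and Tg AMs for the 5 genes (diamonds) and the tested genes of their family or pathway lists, filled where the edgeR adjusted p was under 0.05. The diamonds lie below all called relatives, both SLCO relatives lie at or above 3.68, and the open circle below Kazald1 in the Tg panel is Igfbp3, fitted at -6.40 with an SE of 3.33 against a group at 0.

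Profiles were also compared over the 12 libraries, as the root mean square difference between centred log2 CPM values, for 11155 other genes with a mean of at least 1 CPM. As the 5 genes were chosen for their fall, genes that fell by a like amount come out as near, and the values are a description. Kazald1 was most like Mamdc2 (0.48), then Rgs2 (0.53) and Ucp3, a mitochondrial carrier (0.56). Mamdc2 itself lay closer to Ucp3 (0.42), Cnr2 (0.44) and Tmem154 (0.47) than to Kazald1. Rab44 was most like Rgs2 (0.45), Agmo (0.50), which cleaves ether lipids, and Ucp3 (0.51). Dysf was most like Fabp7 (0.86), a fatty acid-binding protein, Kazald1 (0.91) and the tight junction gene Cldn1 (0.92). Slco2b1 had the largest distance to its nearest gene, with Dysf at 1.06, Cxcr2 at 1.29 and Cldn1 at 1.31. Between Slco2b1 and Rab44 the difference was 1.60, the largest among the 5.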

How the data were processed

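RNA from AMs was sequenced in 12 libraries (SMART-Seq v4, read pairs of 125 bp). The authors aligned reads to mm10 with HISAT2 without strand, quantified GENCODE M20 genes with StringTie and deposited estimated counts per gene, as whole numbers. They were used as deposited. Of 47985 values from 1 to 30, 55.3% were 0 or 3 modulo 5 (40.0% if even). Of 20551 IDs, 20158 were found in GENCODE M21, which gave symbols and positions. Genes were filtered with filterByExpr (minimum count 10, total 15) and tested with edgeR 4.0.16 (R 4.3.3, TMM, quasi-likelihood, a term per group and for the batch, two-sided, Benjamini-Hochberg over 13729 genes, threshold 0.05). CPM are TMM-scaled. Within-batch differences are of mean log2(CPM + 0.5). For profiles, log2 CPM took a prior count of 2. Counting intervals were exact binomial (counts divided by 5 per read pair). The scripts were tested on simulated data.

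The 5 genes and the gene lists were chosen with earlier results of these data known. Named relatives are the 2 largest rises and falls per list among genes called in both genotypes, and named neighbours are the 3 next falls and the 3 nearest profiles. Further genes (Myof, Fer1l5, Igfbp genes, Rab37, Cracr2a and marker genes) were named after their values were seen. Medium and LPS libraries of 1 pool come from the same animals, and their deviations from group means correlated at 0.137 to 0.335 (own pool, 6 pools). Alternatives were another scaling (RLE), no filter, DESeq2 1.42.0, counts divided by 5, no batch term, a replicate block, the compared groups only, and leaving out each library.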

Additional observations from a re-analysis of the deposited data

How the results depend on the processing

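The fitted LPS changes of the 5 genes kept their sign under all alternatives. With 1 library left out they ranged in WT from -7.17 to -6.70 for Slco2b1, -6.41 to -5.09 for Dysf, -4.78 to -4.23 for Kazald1 (lowest without WT LPS 16), -4.34 to -4.21 for Mamdc2 and -3.89 to -3.20 for Rab44, and in Tg from -9.21 to -7.44, -6.82 to -6.38, -5.54 to -5.32, -5.26 to -4.95 and -5.02 to -4.33. The genotype differences in medium stayed positive and under the threshold, except that Dysf passed with DESeq2 (1.29, adjusted p 0.0408), counts divided by 5 (1.44, 0.0418) and the replicate block with pool as a random effect (1.54, 0.0320). Leaving out 1 library, they ranged in medium from 0.42 to 1.03 for Slco2b1, 1.08 to 1.74 for Dysf, 0.42 to 0.66 for Kazald1, 0.27 to 0.49 for Mamdc2 and 0.13 to 0.53 for Rab44, and in LPS from -0.64 to -0.14 for Kazald1, -0.54 to -0.20 for Mamdc2 and -1.23 to -0.29 for Rab44. In LPS, the sign turned for Slco2b1 without Tg LPS 18 (0.13, range -1.67 to 0.13) and for Dysf without WT LPS 16 (-0.04, range -0.04 to 1.30, highest without WT LPS 18), genes with 0 to 17 counts a library there. The count of 36 genes called between genotypes in medium was 20 without the filter, 500 with DESeq2, 61 with counts divided by 5, 19 without the batch term, 12 with the compared groups alone and 4 to 27 with 1 library left out, lower by over 1.5 times without any 1 medium library, WT LPS 18, Tg LPS 17 or Tg LPS 19 (4 without Tg medium 17). The count of 7 in LPS was 146 with DESeq2, 11 with counts divided by 5, 1 without the batch term, 12 and 11 with the replicate block (number and pool), 2 with the compared groups alone and 2 to 11 with 1 library left out (2 without Tg LPS 17, 3 without WT LPS 18, 4 without WT medium 16, WT medium 18 or Tg medium 19, 11 without Tg LPS 18). The cause of these shifts was not tested. Of the ferlins, 1 was called in WT with the pool block. The block changed no other call on the 5 genes. The 3 genes most like each member were kept, 3 of 3, with a prior count of 0.5. Depth limits Slco2b1 and Dysf in LPS, where so few counts leave a genotype difference undetectable unless it is large.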
